A study of Danio rerio with 10 samples.

Results

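The genes described here serve the endoplasmic reticulum (ER), the compartment in which secreted and membrane proteins are made and folded. They were chosen by a rule on gene symbols, written with earlier results of these data known. The set holds the signal recognition particle (srp), the Sec61 to Sec63 translocon, the translocon-associated protein complex (ssr), signal peptidase (spcs), protein disulfide isomerases and their oxidases (pdia, ero1), canx, hyou1 and manf, ER-associated degradation (edem, derl, sel1l, syvn1, herpud), the stress sensors and related kinases (ern, atf6, eif2ak) and the transcription factors atf4, creb3, xbp1 and ddit3. Of the 14650 genes counted, 49 matched, and 48 of them were among the 11871 genes with enough reads to test. The symbols eif2ak3 and ern2 matched no counted gene and are not analysed here. RNA was measured by sequencing in whole zebrafish embryos at the 17-18 somite stage, in 5 libraries of the tpcn2 mutant line (labelled TPC2) and 5 of the ABTU wild-type strain, all kept at 28 °C. tpcn2 encodes a cation channel of the lysosome membrane. The labels give neither the allele nor the strain background of the mutant, and do not say whether a library pools embryos or whether the genotypes share parents, so genotype cannot be told apart from strain or clutch, and p-values measure only the spread between these libraries.

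In cells, a ribosome that begins a secreted protein is brought to the ER by the signal recognition particle, and the growing chain passes through the Sec61 channel, loses its signal peptide and is folded by chaperones and disulfide isomerases. Chains that fail to fold are drawn back to the cytosol and degraded. When unfolded protein builds up, sensors in the ER membrane start the unfolded protein response. Ern1 (IRE1) splices xbp1 mRNA, Atf6 is cut to release a transcription factor, and phosphorylation of the translation factor eIF2 favours translation of atf4 mRNA, which leads to ddit3 (CHOP). In the zebrafish embryo the hatching gland, the notochord sheath and the yolk syncytial layer are among the cells that secrete most.

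Libraries held 17890367 to 21699665 counts in the mutant and 18616906 to 22498643 in wild type. Values below are counts divided by the library total on a common scale (CPM), with edgeR's TMM factors, and they compare libraries for 1 gene, not genes with each other, since no gene length entered. Differences are log2 fold changes of the mutant over wild type, each with its standard error (n = 5 libraries each), and adjusted p-values come from edgeR's quasi-likelihood test. Means, SDs and ranges given for mutant or wild-type embryos are taken over libraries, so n counts libraries. tpcn2 itself had 8.84, 10.3, 10.3, 6.72 and 10.2 CPM in the mutant libraries, against 47.1, 47.3, 81.1, 60.2 and 54.3 CPM in the wild-type libraries. Its level was 0.160 times that of wild type, with no overlap (log2 fold change -2.64 ± 0.186, edgeR adjusted p = 3.19e-08), so the libraries go with their labels. Across genes, libraries of the same genotype correlated at 0.981 to 0.992 and libraries of different genotypes at 0.964 to 0.970. None of the ER genes lay among the 100 tested genes nearest to tpcn2 in gene order, and creb3l1, on the same chromosome, lay 166 tested genes away.

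The ER set did not move in 1 direction. At a Benjamini-Hochberg adjusted p under 0.05 by edgeR's quasi-likelihood test, 11 of the 48 tested genes were higher in the mutant (22.9%, against 20.6% of all tested genes), 9 were lower (18.75%, against 21.6%) and 28 did not pass. Together 20 were called (41.7%, against 42.2%), so the set was called about as often as all tested genes. In 13 genes all libraries of 1 genotype lay above those of the other (27.1%, against 28.7% of all tested genes). Changes were small, with a median absolute log2 fold change of 0.15 among the ER genes and 0.22 among all tested genes. Of the 20 calls, 14 were of genes that moved by under 0.5, and 58.9% of all called genes moved by under 0.5 too. Of the called genes derl3 and eif2ak2 changed at least 2-fold. ER genes took 0.708 to 0.753% of all counts in the mutant libraries and 0.703 to 0.777% in the wild-type libraries, so their summed share overlapped. The roles differed in how many genes were called. Among the transcription factors 7 of 8 were called, all 7 without overlap, whereas the genes of protein entry (signal recognition particle to signal peptidase) gave 4 calls in 18.

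**Figure D1:**
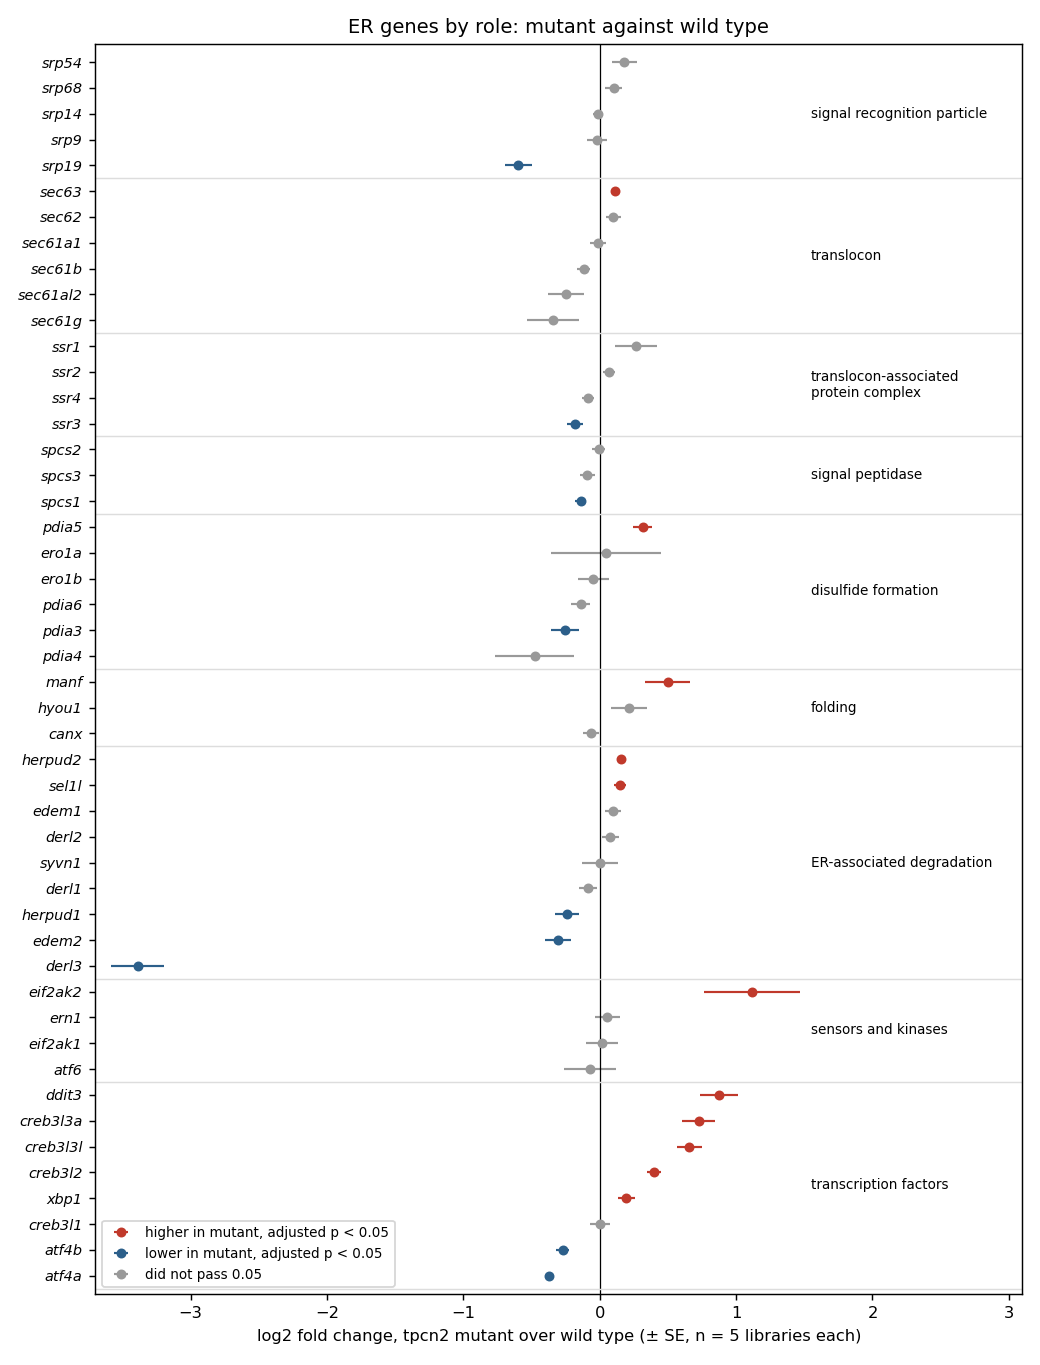
Log2 fold change (tpcn2 mutant over wild type, x axis) of the 48 tested ER genes, sorted by role, with bars for the standard error (n = 5 libraries each) and colours for the call at an adjusted p of 0.05. Most points lie close to 0. derl3 stands far to the left at -3.39, and 5 of the 8 transcription factors lie to the right.

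Of the 5 genes of the signal recognition particle 1 was called, srp19, whose product binds the RNA of the particle and lets the signal-binding subunit Srp54 join it. Levels of srp19 were 57.97, 57.8, 60.3, 57.7 and 57.2 CPM in the mutant libraries, against 74.01, 108, 84.1, 78.5 and 94.4 CPM in the wild-type libraries. The mutant values fell in a narrow band below all wild-type values, at 0.662 times the wild-type mean (log2 fold change -0.60 ± 0.0992, edgeR adjusted p = 9.11e-05). For srp54 the mean was 223 ± 5.48 CPM over the mutant libraries and 197 ± 26.4 CPM over the wild-type libraries (SD, n = 5 libraries each). The difference of 0.18 ± 0.0923 did not pass (edgeR adjusted p = 0.0728), although it did without wild-type replicate 5 (adjusted p = 0.0254). srp68, which helps hold the protein core on the RNA, differed by 0.10 ± 0.0596 (adjusted p = 0.170), and passed without mutant replicate 1 (adjusted p = 0.0423). srp9 and srp14, which together pause elongation, differed by -0.02 ± 0.0721 and -0.01 ± 0.0381 (adjusted p = 0.859 and 0.840).

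At the translocon the single call was sec63, a membrane protein whose J domain recruits the chaperone Hspa5 to the channel. Its levels were 193, 206, 199, 215 and 205 CPM in the mutant libraries, against 189, 185, 188, 189 and 189 CPM in the wild-type libraries. The mutant libraries lay just above the wild-type ones, by 0.11 ± 0.0270 on the log2 scale (edgeR adjusted p = 0.0368). That call ended in 7 of 10 fits that left out 1 library (mutant replicate 2, 4 or 5 or wild-type replicate 2, 3, 4 or 5, adjusted p 0.0557 to 0.1002) and with library size alone as scaling (adjusted p = 0.0536). The channel subunits themselves did not pass. sec61al2, a copy of the pore-forming alpha subunit, had 377, 328, 404, 355 and 397 CPM in the mutant libraries, against 376, 358, 566, 482 and 424 CPM in the wild-type libraries, with overlap and a difference of -0.25 ± 0.133 (adjusted p = 0.0750). It passed without wild-type replicate 1 or 2 (adjusted p 0.0211 to 0.0278). The other alpha copy, sec61a1, differed by -0.01 ± 0.0579 (adjusted p = 0.857). The beta subunit sec61b differed by -0.12 ± 0.0476 (adjusted p = 0.0686), and passed without mutant replicate 1, wild-type replicate 1 or wild-type replicate 2 (adjusted p 0.0352 to 0.0378) and with library size alone (0.0453). The gamma subunit sec61g differed by -0.34 ± 0.191 (adjusted p = 0.120), and passed without mutant replicate 2 or wild-type replicate 1 (adjusted p 0.0336 to 0.0457). sec62, which with Sec63 serves chains that enter after translation, differed by 0.10 ± 0.0558 (adjusted p = 0.240).

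Of the 4 subunits of the translocon-associated protein complex, which sits beside the channel and aids the entry of some chains, ssr3 was lower in the mutant. It had 278, 267, 259.9, 254 and 266 CPM in the mutant libraries, against 314, 284, 338, 295 and 273 CPM in the wild-type libraries. The ranges overlapped by 1 library on each side (log2 fold change -0.18 ± 0.0587, edgeR adjusted p = 0.0174). ssr4 averaged 529 ± 13.3 CPM in mutant embryos and 562 ± 36.6 CPM in wild-type embryos (SD, n = 5 each, log2 fold change -0.09 ± 0.0447, adjusted p = 0.155), and ssr2 differed by 0.06 ± 0.0443 (adjusted p = 0.297). The remaining subunit, ssr1, ranged over 201 to 241 CPM in mutant embryos and 137 to 227 CPM in wild-type embryos, a difference of 0.26 ± 0.153 (adjusted p = 0.0858) that passed without wild-type replicate 3 or 4 (adjusted p 0.0247 to 0.0491).

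Signal peptidase cuts the signal peptide from the entering chain. Its accessory subunit spcs1 had 103, 93.9, 98.8, 98.7 and 92.8 CPM in the mutant libraries, against 108, 102, 114, 103 and 109.7 CPM in the wild-type libraries, a small shift with overlapping ranges that passed the test (log2 fold change -0.14 ± 0.0410, edgeR adjusted p = 0.0342). Leaving out mutant replicate 2, 3 or 5 or wild-type replicate 3 or 5 ended that call (adjusted p 0.0557 to 0.0834). spcs2 averaged 257 ± 13.4 CPM in mutant embryos and 258 ± 14.4 CPM in wild-type embryos (SD, n = 5 each, log2 fold change -0.00826 ± 0.0486, adjusted p = 0.911), and spcs3, which the enzyme needs for activity, differed by -0.09 ± 0.0562 (adjusted p = 0.221).

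Disulfide isomerases moved in both directions. pdia5 was higher in the mutant, with 105, 107, 99.8, 117 and 113 CPM in the mutant libraries, against 94.4, 81.4, 76.7, 94.2 and 88.4 CPM in the wild-type libraries. No mutant library reached down into the wild-type range (log2 fold change 0.32 ± 0.0708, edgeR adjusted p = 0.00152). pdia3 (ERp57), which works on glycoproteins held by calnexin and calreticulin, went the other way, with 167, 145, 139.6, 167 and 179 CPM in the mutant libraries, against 234, 179, 178, 190.2 and 171 CPM in the wild-type libraries. Its ranges overlapped and the difference was -0.25 ± 0.106 (edgeR adjusted p = 0.0308). It did not pass without mutant replicate 2, mutant replicate 3 or wild-type replicate 1 (adjusted p 0.0580 to 0.0859). pdia4 had 28.1, 25.6, 28.3, 46.1 and 34.7 CPM in the mutant libraries, against 83.2, 37.1, 37.9, 37.4 and 31.8 CPM in the wild-type libraries. Wild-type replicate 1 stood far above all other libraries, and the difference was -0.48 ± 0.289 with every library (adjusted p = 0.119) and -0.14 without wild-type replicate 1 (adjusted p = 0.426). Without that library and mutant replicate 4 it was called (log2 fold change -0.30, adjusted p = 0.0233). pdia6 differed by -0.14 ± 0.0715 (adjusted p = 0.0924), and passed without wild-type replicate 4 (adjusted p = 0.0118). The oxidases that recharge these enzymes did not pass, with -0.05 ± 0.113 for ero1b (adjusted p = 0.731) and 0.04 ± 0.403 for ero1a (adjusted p = 0.932), which was read at 0.556 to 2.09 CPM in mutant embryos and 0.714 to 2.50 CPM in wild-type embryos. pdia2, which had too few reads for the test, had 2 reads over the mutant libraries and 28 over the wild-type libraries, a ratio of 0.0732 with an exact 95% interval of 0.00844 to 0.290 for counting error only.

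Among the 3 folding genes the call was manf, a small ER protein that binds Hspa5 and can be secreted. Its levels were 52.7, 41.8, 50.4, 67.2 and 58.5 CPM in the mutant libraries, against 52.3, 37.4, 34.6, 33.6 and 33.9 CPM in the wild-type libraries. Mutant values lay above 4 of the 5 wild-type libraries, while wild-type replicate 1 fell inside the mutant range (log2 fold change 0.50 ± 0.165, edgeR adjusted p = 0.00864). canx, the membrane-bound lectin chaperone, averaged 849 ± 51.3 CPM in mutant embryos and 888 ± 61.6 CPM in wild-type embryos (SD, n = 5 each), a difference of -0.06 ± 0.0596 (adjusted p = 0.375). hyou1, the nucleotide exchange factor of Hspa5, had 124, 121, 124, 149 and 155 CPM in the mutant libraries, against 152, 112, 97.7, 108 and 110.4 CPM in the wild-type libraries. Wild-type replicate 1 was again the highest wild-type library, and the difference was 0.22 ± 0.130 (adjusted p = 0.115), against 0.33 without wild-type replicate 1 (adjusted p = 0.00298).

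ER-associated degradation held the largest change of the set. derl3 belongs to the derlins, membrane proteins through which misfolded chains leave the ER, and in mammals is found mainly in secretory tissues. Its levels were 1.17, 1.198, 1.58, 1.52 and 1.62 CPM in the mutant libraries, against 17.1, 13.1, 20.8, 10.4 and 13.2 CPM in the wild-type libraries. Every mutant library lay far below every wild-type library, at 0.0949 times the wild-type mean (log2 fold change -3.39 ± 0.196, edgeR adjusted p = 2.62e-08), with 21 to 33 reads per mutant library and 204 to 388 reads per wild-type library. In bulk RNA of whole embryos, fewer cells of a type and less RNA per cell cannot be told apart. The other derlins stayed close to 0, with -0.09 ± 0.0684 for derl1 and 0.08 ± 0.0643 for derl2 (adjusted p = 0.294 and 0.387). Of the 10 tested genes next to derl3 in gene order, 5 on each side, changes lay between -0.23 and 0.34. The call was higher for gucd1 and lower for smarcb1a and snrnp200, and none of the 10 fell by more than 0.23.

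Around the ubiquitin ligase of this pathway the shifts were small. The ligase itself, syvn1 (Hrd1), had 101, 95.1, 107, 104 and 104 CPM in the mutant libraries, against 139, 83.2, 97.6, 99.2 and 92.1 CPM in the wild-type libraries, with wild-type replicate 1 above all others and nearly equal means (log2 fold change 0.00228 ± 0.129, edgeR adjusted p = 0.989). Its partner sel1l averaged 92.3 ± 5.62 CPM in mutant embryos and 83.2 ± 3.13 CPM in wild-type embryos (SD, n = 5 each) and was called higher (log2 fold change 0.15 ± 0.0455, adjusted p = 0.0342), a call that ended without mutant replicate 2, 3 or 4 or wild-type replicate 2, 3 or 4 (adjusted p 0.0558 to 0.0948). herpud1, an adaptor of the ligase that ER stress raises in many cell types, was lower in the mutant. It had 37.6, 36.7, 46.5, 39.2 and 34.2 CPM in the mutant libraries, against 50.4, 41.1, 45.9, 46.2 and 45.96 CPM in the wild-type libraries, with overlap (log2 fold change -0.24 ± 0.0875, adjusted p = 0.0307), and the call ended in 7 of 10 fits that left out 1 library (mutant replicate 1, 2, 4 or 5 or wild-type replicate 1, 4 or 5, adjusted p 0.0502 to 0.0788). The related herpud2 had 33.3, 33.003, 32.6, 34.2 and 34.6 CPM in the mutant libraries, against 31.2, 27.9, 30.4, 29.4 and 31.3 CPM in the wild-type libraries, and here the mutant libraries were all above wild type by a small margin (log2 fold change 0.16 ± 0.0343, adjusted p = 0.0471). That call was the least stable of the 20, since it held in 1 of 10 such fits (without wild-type replicate 1), ended in those without any other library (adjusted p 0.0510 to 0.104), and ended with library size alone (0.0577) and with no filter on low counts (0.0612). edem2, a lectin-like protein that prepares glycoproteins for degradation, had 14.1, 17.7, 17.3, 16.8 and 17.1 CPM in the mutant libraries, against 21.7, 22.5, 20.1, 16.8 and 21.5 CPM in the wild-type libraries. Wild-type replicate 4 reached into the mutant range, and the difference was -0.31 ± 0.0944 (edgeR adjusted p = 0.0179), while the related edem1 differed by 0.09 ± 0.0581 (adjusted p = 0.206).

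Of the stress sensors, ern1 and atf6 were measured and neither was called. ern1 had 11.3, 13.8, 13.6, 10.7 and 10.7 CPM in the mutant libraries, against 10.6, 10.99, 11.6, 12.2 and 12.5 CPM in the wild-type libraries, and the values of the genotypes were interleaved (log2 fold change 0.06 ± 0.0932, edgeR adjusted p = 0.695). atf6 had 21.01, 17.2, 27.7, 18.9 and 21.98 CPM in the mutant libraries, against 14.4, 25.1, 25.4, 23.3 and 23.9 CPM in the wild-type libraries, again interleaved, with wild-type replicate 1 lowest (log2 fold change -0.07 ± 0.191, adjusted p = 0.737). Counts per gene do not show whether xbp1 was spliced, Atf6 was cut or eIF2 was phosphorylated. The symbol rule also took in a pair of eIF2 kinases that are not ER sensors. eif2ak1, the heme-regulated kinase, averaged 37.2 ± 2.89 CPM in mutant embryos and 36.8 ± 6.89 CPM in wild-type embryos (SD, n = 5 each, log2 fold change 0.02 ± 0.120, adjusted p = 0.913). eif2ak2, the kinase that responds to double-stranded RNA, had 1.61, 2.11, 3.11, 2.49 and 2.68 CPM in the mutant libraries, against 0.372, 1.19, 1.12, 1.17 and 1.61 CPM in the wild-type libraries. The lowest mutant library and the highest wild-type library nearly met, and the mean was 2.19 times that of wild type (log2 fold change 1.12 ± 0.353, edgeR adjusted p = 0.00775). It rested on 29 to 61 reads per mutant library and 7 to 36 per wild-type library.

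Transcription factors were the role with the most calls, 5 higher and 2 lower of 8. These shares were 62.5% higher and 25% lower, against 20.6% and 21.6% of all tested genes. Within the eIF2 branch ddit3 went up while both atf4 copies went down. ddit3, a proapoptotic factor, had 24.5, 24.8, 32.7, 28.9 and 27.7 CPM in the mutant libraries, against 19.4, 12.2, 14.6, 13.3 and 16.2 CPM in the wild-type libraries. All mutant values exceeded all wild-type values, at 1.83 times the wild-type mean (log2 fold change 0.87 ± 0.139, edgeR adjusted p = 6.38e-05). atf4a, a copy of the activator that acts upstream of ddit3, had 166, 163, 169.9, 165 and 169.8 CPM in the mutant libraries, against 222, 198, 221, 222 and 214 CPM in the wild-type libraries. The mutant libraries lay close together and below every wild-type library (log2 fold change -0.37 ± 0.0330, adjusted p = 1.52e-05). The second copy, atf4b, had 225, 226, 255, 241 and 212 CPM in the mutant libraries, against 288, 279, 283, 268 and 283 CPM in the wild-type libraries, also without overlap and lower in the mutant (log2 fold change -0.27 ± 0.0493, adjusted p = 6.79e-04).

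Whether the atf4 copies fell to different degrees was tested from their ratio within each library. The log2 ratio of atf4a to atf4b was -0.47 ± 0.104 in the mutant and -0.38 ± 0.0790 in wild type (SD, n = 5 each). The difference of -0.0930 ± 0.0583 did not pass an exact two-sided permutation test (p = 0.151, adjusted over the 2 a and b pairs 0.302). The ratio of ero1a to ero1b was -4.78 ± 0.683 in the mutant and -4.85 ± 0.528 in wild type, a difference of 0.0743 ± 0.386 (exact permutation p = 0.825, adjusted 0.825). Its standard error is large, so a shift of the ero1 ratio was not detectable at this depth unless it was large too.

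xbp1, the factor activated by ern1, had 842, 700.1, 773, 725 and 751 CPM in the mutant libraries, against 686, 595, 698, 670.3 and 661 CPM in the wild-type libraries. The lowest mutant library stood just above the highest wild-type one (log2 fold change 0.20 ± 0.0607, edgeR adjusted p = 0.0123). In zebrafish xbp1 is strongly expressed in the hatching gland. Of 9 tested markers of that gland, 3 were higher (ctslb, he2 and prdm1a) and 2 lower (cd63 and tmprss13b). These shares were 33.3% higher and 22.2% lower, against 20.6% and 21.6% of all tested genes. The summed level of the markers was 2814 to 3424 CPM in the mutant libraries and 2461 to 2786 CPM in the wild-type libraries. Without ctslb, the most abundant of them, the sums overlapped, with 1280.0 to 1647 CPM in the mutant libraries and 1419 to 1631 CPM in the wild-type libraries, and he1a, he1b, klf17 and agr2 were not called. No marker was at 0 in all libraries, and the part of hatching gland cells in the xbp1 result was not tested.

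The creb3 factors are cut in the Golgi to reach the nucleus. creb3l2, which in zebrafish drives genes of the COPII coat in collagen-secreting cells, had 79.9, 74.3, 71.8, 78.9 and 74.4 CPM in the mutant libraries, against 52.1, 56.3, 61.3, 61.4 and 57.3 CPM in the wild-type libraries. The lowest mutant library was clearly above the highest wild-type library (log2 fold change 0.40 ± 0.0526, edgeR adjusted p = 9.93e-05). Of 9 tested notochord markers, 8 were higher in the mutant (88.9%, against 20.6% of all tested genes). The marker col9a1a was lower (11.1%, against 21.6%). In 5 of the 9 the libraries did not overlap (55.6%, against 28.7% of all tested genes), namely col8a1a, col2a1a, loxl5b, cmn and col9a1a. The higher markers noto, ta, shha and shhb overlapped, with ta and shha close to the threshold (edgeR adjusted p = 0.0471 and 0.0477). Stability of the marker calls was not examined. The summed level of the markers was 1096 to 1167 CPM in the mutant libraries and 709 to 965 CPM in the wild-type libraries. Without col2a1a, the most abundant, the sums still did not overlap, with 644 to 687 CPM in the mutant libraries and 404 to 538 CPM in the wild-type libraries. None was at 0 in all libraries, and the part of notochord cells in the creb3l2 result was not tested. creb3l1, a close relative with a role in bone matrix in mammals, averaged 33.4 ± 2.41 CPM in mutant embryos and 33.3 ± 2.78 CPM in wild-type embryos (SD, n = 5 each, log2 fold change 0.00345 ± 0.0726, adjusted p = 0.975).

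The creb3l3 copies, relatives of a mammalian regulator of lipid genes in the liver, both rose. creb3l3a had 49.9, 42.3, 46.7, 45.7 and 45.96 CPM in the mutant libraries, against 26.5, 20.8, 34.3, 28.5 and 29.4 CPM in the wild-type libraries. Every mutant library was above every wild-type library, at 1.65 times the wild-type mean (log2 fold change 0.73 ± 0.123, adjusted p = 8.01e-05). creb3l3l had 71.7, 62.5, 78.3, 66.2 and 63.03 CPM in the mutant libraries, against 47.2, 39.01, 47.3, 38.3 and 44.8 CPM in the wild-type libraries, likewise without overlap, at 1.58 times the wild-type mean (log2 fold change 0.66 ± 0.0900, edgeR adjusted p = 2.25e-05). In the embryo the yolk syncytial layer makes the plasma lipoproteins that the liver makes later. Of its 16 tested markers, 4 were higher (apobb.1, apoa4b.2, apoea and serpina1) and 3 lower (apoa2, apoc1l and fgg). These shares were 25% higher and 18.75% lower, against 20.6% and 21.6% of all tested genes. The summed level of the markers overlapped, with 25201 to 28226 CPM in the mutant libraries and 20517 to 30119 CPM in the wild-type libraries. None was at 0 in all libraries, and the part of this layer in the creb3l3 results was not tested.

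**Figure D2:**
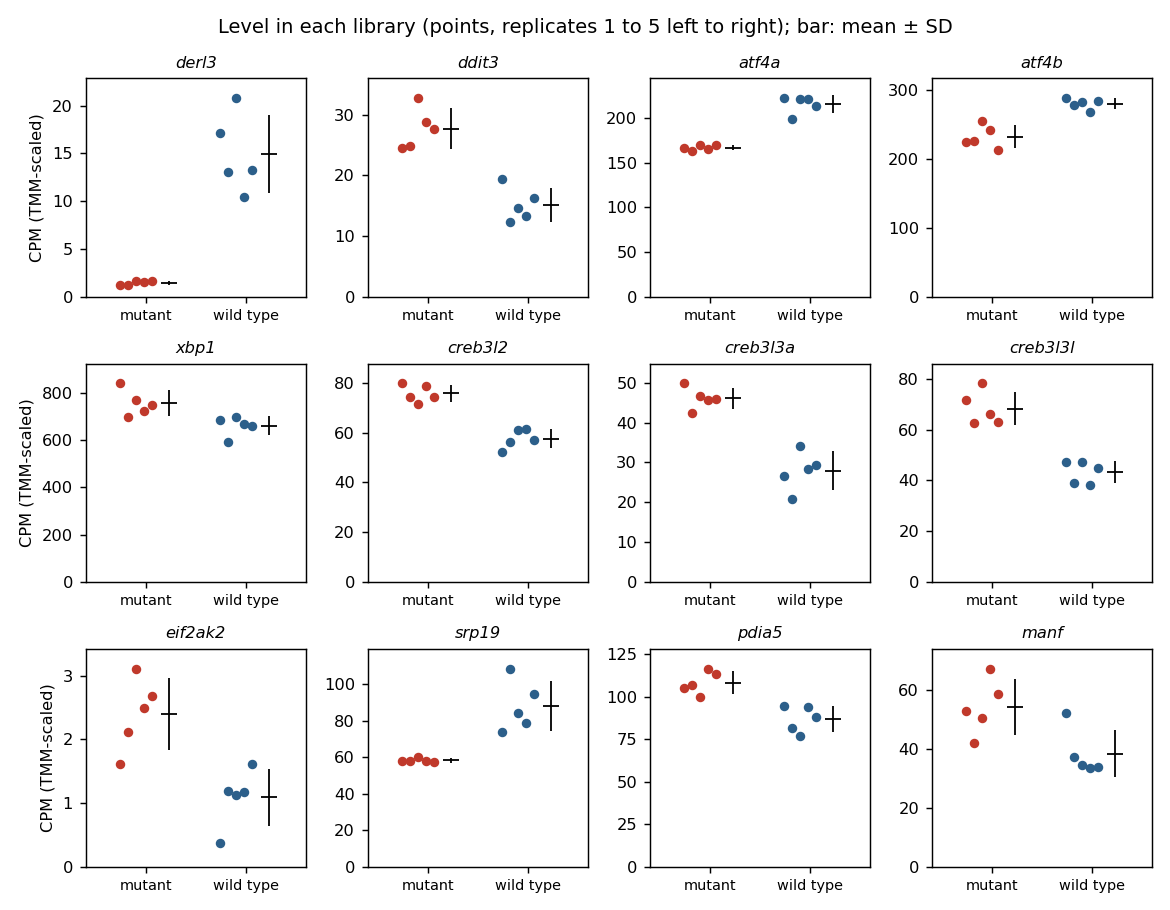
Level in TMM-scaled CPM (y axis, from 0) of 12 ER genes in each mutant library (red, left) and each wild-type library (blue, right), with the mean and SD beside the points. The genotypes do not overlap in 11 of the panels, while in manf wild-type replicate 1 lies among the mutant libraries. The panels show called genes picked for display. Of all 48 tested ER genes, 13 did not overlap (27.1%, against 28.7% of all tested genes).

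Libraries of 1 genotype differed among themselves, and several chaperones were highest in wild-type replicate 1. hspa5 (BiP), the main Hsp70 chaperone of the ER and a gene outside the symbol rule, had 431, 352, 385, 584 and 491 CPM in the mutant libraries, against 885, 325, 348, 397 and 393 CPM in the wild-type libraries. Wild-type replicate 1 was more than double any other wild-type library, and the genotypes otherwise overlapped (log2 fold change -0.07 ± 0.292, edgeR adjusted p = 0.844), with 0.29 without wild-type replicate 1 (adjusted p = 0.0540). hsp90b1, its Hsp90 counterpart, had 63.8, 48.6, 57.9, 78.8 and 63.3 CPM in the mutant libraries, against 114, 37.5, 44.8, 51.3 and 40.7 CPM in the wild-type libraries. The difference was 0.12 ± 0.310 (edgeR adjusted p = 0.737), against 0.52 without wild-type replicate 1 (adjusted p = 0.00261). Over all 48 genes, wild-type replicate 1 was the highest wild-type library in 19 (39.6%, against 26.7% of all tested genes), and wild-type replicate 2 the lowest in 23 (47.9%, against 22.04%). Among mutant libraries, replicate 2 was the lowest in 19 (39.6%, against 19.5%).

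**Figure D3:**
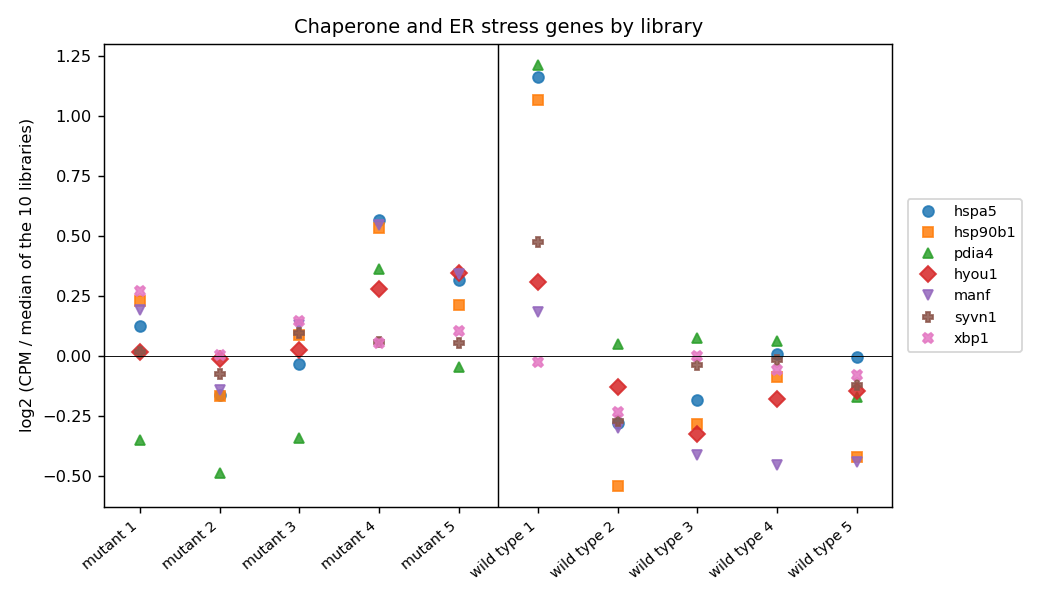
Log2 of the CPM over the median of the 10 libraries (y axis) for 7 chaperone and stress genes in each mutant library (left) and each wild-type library (right). In wild-type replicate 1, hspa5, hsp90b1 and pdia4 lie more than 1 above the median, and the other wild-type libraries lie near or below 0.

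Without wild-type replicate 1, a setting of the same fit, 12 ER genes were higher and 10 lower. In that fit 44.3% of all tested genes were called, against 42.2% with every library. Of the 20 genes called with all libraries 18 were called again, herpud1 and pdia3 were not, and hyou1 (higher) and sec61al2, sec61b and sec61g (lower) joined. Leaving out mutant replicate 4 as well, an alternative chosen after the data were seen, gave 9 higher and 6 lower. Of all tested genes 40.9% were called there. In that setting 13 of the 20 calls held, hyou1 (log2 fold change 0.29, adjusted p = 0.00919) and pdia4 (log2 fold change -0.30, adjusted p = 0.0233) joined, and herpud1, herpud2, pdia3, sec63, sel1l, spcs1 and ssr3 were lost (ssr3 at an adjusted p of 0.0678). Among the 126 further ER genes described below, leaving out wild-type replicate 1 gave 26 higher and 26 lower, with 46 called in both fits. hsp90b1, serpinh1b, tram1, tram2 and preb (higher) and eif2s1a (lower) joined, and os9, rnf139, trib3 and sec23a were lost. The 7 called transcription factors, derl3, srp19, pdia5, manf, eif2ak2, ssr3 and edem2 were called in all 10 fits that left out 1 library. The highest edgeR adjusted p over these fits was close to the threshold for edem2 (0.04998) and ssr3 (0.0441).

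**Figure D4:**
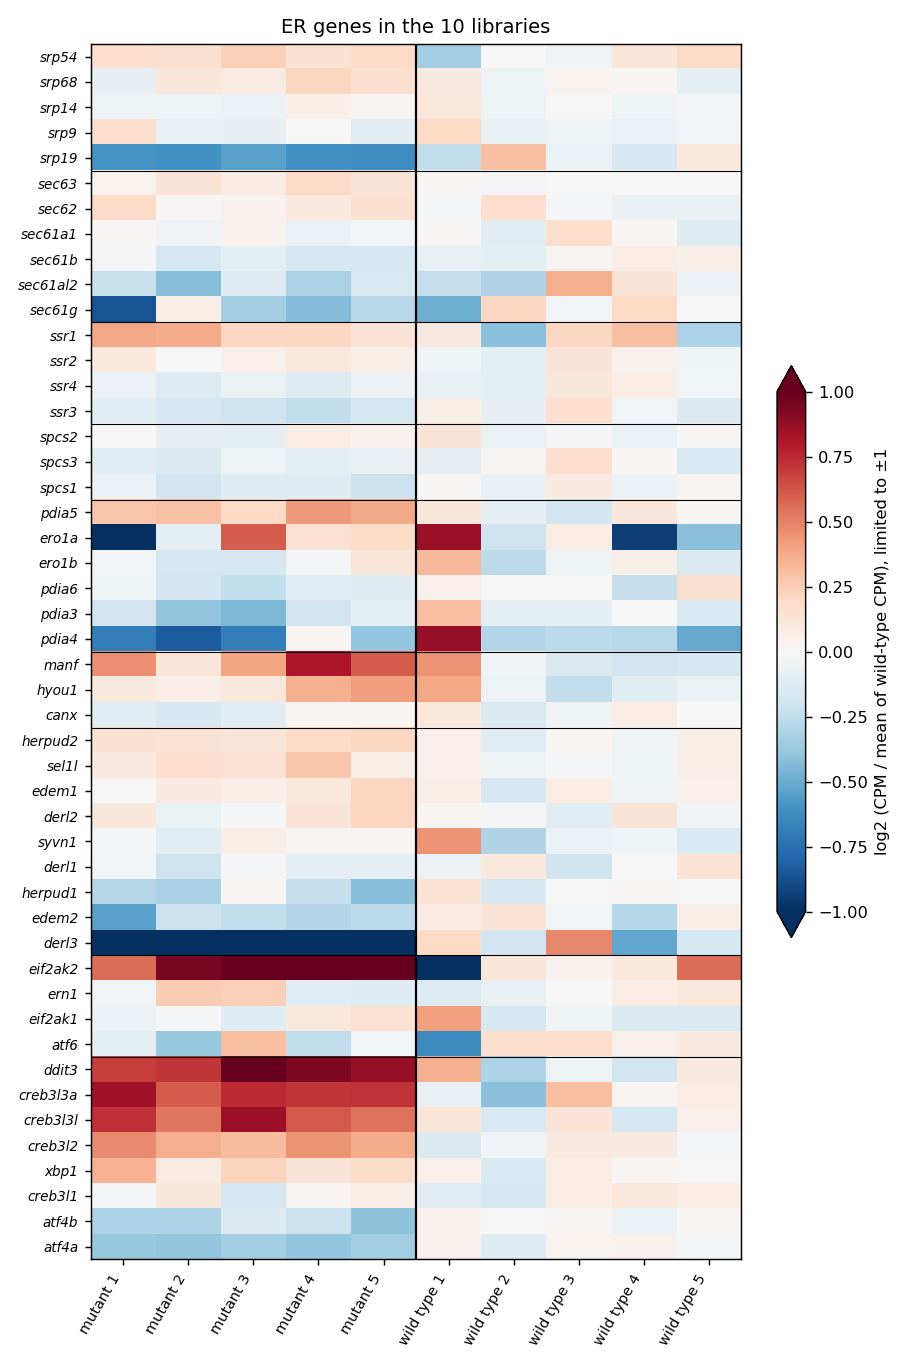
Colour gives log2 of each library's CPM over the mean of the wild-type libraries, limited to 1 in each direction, for the 48 tested ER genes (rows, by role) in the mutant libraries (left of the line) and the wild-type libraries (right). The rows of derl3 (blue) and of ddit3, creb3l3a and creb3l3l (red) keep their colour across the mutant libraries, and pdia4 and ero1a are dark red in wild-type replicate 1.

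For context, 126 further tested genes of the ER and of export from it, out of 171 listed, were counted in the same fit. Of these 23 were higher in the mutant (18.3%) and 27 lower (21.4%), and 39.7% were called, against the 42.2% of all tested genes. In the list of chaperones and glycoprotein folding, 7 were higher and 7 lower of 34 (41.2% called). tmx4, a membrane-bound relative of the disulfide isomerases, averaged 27.3 ± 2.28 CPM in mutant embryos and 9.54 ± 2.91 CPM in wild-type embryos (SD, n = 5 each, log2 fold change 1.52 ± 0.194, adjusted p = 5.19e-06). dnajb9a, a co-chaperone of Hspa5 that ER stress raises in mammals, had 5.89, 8.43, 7.14, 11.01 and 9.04 CPM in the mutant libraries, against 5.37, 3.09, 3.43, 4.23 and 2.86 CPM in the wild-type libraries, without overlap (log2 fold change 1.14 ± 0.221, edgeR adjusted p = 3.91e-04). Its copy dnajb9b was also higher, with overlap (log2 fold change 0.75 ± 0.275, adjusted p = 0.0171), but did not pass without mutant replicate 5 (adjusted p = 0.0537). uggt1, which tests whether a glycoprotein has folded, was higher (log2 fold change 0.62 ± 0.0974, adjusted p = 7.33e-05), as was the collagen chaperone serpinh1a (log2 fold change 0.55 ± 0.0584, adjusted p = 1.06e-04). The second copy, serpinh1b, had 709.6, 542, 734, 1282 and 543 CPM in the mutant libraries, against 1118, 232, 254, 209 and 235 CPM in the wild-type libraries. Wild-type replicate 1 and mutant replicate 4 stood far above the rest of their genotypes, and the difference was 0.90 ± 0.509 (edgeR adjusted p = 0.105), against 1.71 without wild-type replicate 1 (adjusted p = 1.28e-05) and 1.195 with limma-voom (adjusted p = 0.0183). Lower in the mutant were tmx2a (log2 fold change -0.80 ± 0.166, adjusted p = 4.11e-04), the glucosidase subunit prkcsh (log2 fold change -0.45 ± 0.0724, adjusted p = 1.44e-04) and the prolyl isomerase fkbp11 (log2 fold change -0.41 ± 0.0598, adjusted p = 9.27e-05). The copy tmx2b did not pass (log2 fold change 0.12 ± 0.0596, edgeR adjusted p = 0.119). calr, the soluble counterpart of calnexin, was lower with overlap (log2 fold change -0.41 ± 0.161, adjusted p = 0.0170). The related calr3b did not pass (log2 fold change -0.08 ± 0.0716, edgeR adjusted p = 0.313). The chaperones dnajb11, sdf2l1 and dnajc3a, known targets of the unfolded protein response in mammals, did not pass (log2 fold change 0.05 ± 0.0848, -0.11 ± 0.0612 and -0.19 ± 0.179, adjusted p = 0.609, 0.205 and 0.337).

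Of 27 genes of targeting and oligosaccharyltransferase, the enzyme that attaches sugar chains to entering proteins, 3 were higher and 7 lower. These shares were 11.1% higher and 25.9% lower, against 20.6% and 21.6% of all tested genes. stt3b, a catalytic subunit that modifies sites after entry, had 196, 198, 191, 199 and 208 CPM in the mutant libraries, against 17.1, 50.8, 43.001, 18.1 and 45.2 CPM in the wild-type libraries. The mutant libraries were even and the wild-type libraries spread, and the mutant mean was 5.69 times that of wild type (log2 fold change 2.50 ± 0.344, edgeR adjusted p = 2.84e-06). stt3a, the catalytic subunit that acts during entry, differed by 0.000765 ± 0.0458 (adjusted p = 0.992). tusc3, an oxidoreductase subunit that serves the Stt3b enzyme, averaged 11.5 ± 2.41 CPM in mutant embryos and 24.4 ± 0.624 CPM in wild-type embryos (SD, n = 5 each) and was lower (log2 fold change -1.08 ± 0.149, adjusted p = 1.22e-05), while magt1, the alternative to it, did not pass (log2 fold change 0.09 ± 0.0390, adjusted p = 0.144). The small subunit ost4 (log2 fold change -0.40 ± 0.0852, adjusted p = 0.00220) and emc6 of the ER membrane complex (log2 fold change -0.35 ± 0.0984, adjusted p = 0.00453) were lower, and asna1, which delivers tail-anchored proteins, was higher (log2 fold change 0.37 ± 0.0570, adjusted p = 1.21e-04). Of the ER membrane complex, emc2 was also lower (log2 fold change -0.30 ± 0.0339, edgeR adjusted p = 1.09e-04). In contrast emc8 was higher with overlap (log2 fold change 0.26 ± 0.0920, edgeR adjusted p = 0.0190), and emc3, emc4, emc7 and emc10 did not pass.

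Among 20 further genes of degradation, 4 were higher (20%, against 20.6% of all tested genes) and 5 lower (25%, against 21.6%). The ATPase vcp, which pulls chains out of the membrane, averaged 907 ± 30.3 CPM in mutant embryos and 1318 ± 90.3 CPM in wild-type embryos (SD, n = 5 each, log2 fold change -0.54 ± 0.0502, adjusted p = 1.68e-06). Its cofactors ufd1l (log2 fold change -0.58 ± 0.0449, adjusted p = 2.36e-06) and nploc4 (log2 fold change -0.43 ± 0.0637, adjusted p = 1.40e-04) were lower as well. Mutant and wild-type libraries did not overlap in any of these. From the same list, ubxn4 and faf2 did not pass (log2 fold change -0.19 ± 0.0712 and -0.14 ± 0.0909, adjusted p = 0.0709 and 0.160). The ubiquitin-conjugating enzyme ube2j2 of the ER membrane was higher, with 23.3 ± 1.28 CPM in mutant embryos and 12.4 ± 1.42 CPM in wild-type embryos (SD, n = 5 each, log2 fold change 0.91 ± 0.0820, adjusted p = 3.48e-06), as were ddrgk1 (log2 fold change 0.51 ± 0.0932, adjusted p = 0.00113) and ube2g2 (log2 fold change 0.34 ± 0.0784, adjusted p = 0.00236).

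Of 25 tested genes of the stress response outside the symbol rule, 7 were lower (28%, against 21.6% of all tested genes) and 1 was higher (4%, against 20.6%). sesn2, a stress-induced regulator of growth signalling, averaged 4.69 ± 0.471 CPM in mutant embryos and 7.95 ± 1.39 CPM in wild-type embryos (SD, n = 5 each, log2 fold change -0.76 ± 0.134, adjusted p = 6.61e-04). chac1, which breaks down glutathione (log2 fold change -0.38 ± 0.117, adjusted p = 0.00722), and the pseudokinase trib3 (log2 fold change -0.17 ± 0.0589, adjusted p = 0.0366) were lower with overlapping ranges, and the trib3 call ended in 6 of 10 fits that left out 1 library (mutant replicate 1, 2 or 3 or wild-type replicate 1, 4 or 5, adjusted p 0.0547 to 0.0989). Subunits of eIF2B, the exchange factor for eIF2, gave 3 lower calls, for eif2b3 (log2 fold change -0.33 ± 0.0620, adjusted p = 8.83e-04), eif2b2 (log2 fold change -0.20 ± 0.0646, adjusted p = 0.0239) and eif2b1 (log2 fold change -0.18 ± 0.0436, adjusted p = 0.0156). The eif2b2 call ended without mutant replicate 3 or 4 (adjusted p 0.0597 to 0.0622). The subunits eif2b4 and eif2b5 did not pass (log2 fold change 0.05 and -0.03, edgeR adjusted p = 0.565 and 0.694). tmbim4 was lower without overlap (log2 fold change -0.53 ± 0.0346, adjusted p = 1.23e-06), and eif2s1b, a copy of eIF2 alpha, was the single gene called higher (log2 fold change 0.26 ± 0.05001, adjusted p = 0.00133). The other copy, eif2s1a, did not pass (log2 fold change -0.10, edgeR adjusted p = 0.0944), but was called lower without wild-type replicate 1 (adjusted p = 0.0422). In this list 17 genes did not pass, among them also asns, atf3, atf5a, cebpb, cebpg, ddit4, ppp1r15a and ppp1r15b.

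The COPII coat, which buds export vesicles from the ER, and its cargo receptors gave 8 higher calls and 1 lower of 20 tested (40% higher, against 20.6% of all tested genes). The outer coat gene sec31a averaged 154 ± 6.03 CPM in mutant embryos and 95.4 ± 9.55 CPM in wild-type embryos (SD, n = 5 each, log2 fold change 0.69 ± 0.0732, adjusted p = 1.99e-06), and the GTPase sar1b 308 ± 14.7 CPM in mutant embryos and 200.2 ± 35.6 CPM in wild-type embryos (log2 fold change 0.62 ± 0.129, adjusted p = 2.11e-04). The cargo-binding sec24d (log2 fold change 0.44 ± 0.0873, adjusted p = 4.16e-04) and sec24c (log2 fold change 0.30 ± 0.0650, adjusted p = 0.00192) were higher without overlap, and the inner coat genes sec23b (log2 fold change 0.32 ± 0.108, adjusted p = 0.00901) and sec23a (log2 fold change 0.25 ± 0.114, adjusted p = 0.0496) with overlap. The sec23a call held without wild-type replicate 3, ended without any other single library (adjusted p 0.0517 to 0.122) and ended with library size alone (0.0523). sar1ab, another copy of the GTPase, was the gene called lower (log2 fold change -0.41 ± 0.0701, adjusted p = 7.03e-04). In this list 11 genes did not pass, among them sec13 and preb (log2 fold change -0.02 and 0.16, edgeR adjusted p = 0.754 and 0.145). The summed notochord markers given above were higher in the mutant than in wild type in all libraries, and the part of notochord cells in the COPII calls was not tested. Of all tested genes 20.6% were called higher and 21.6% lower. Of other cell types, skeletal muscle markers gave 0 higher and 6 lower calls of 12 (50% lower), and neural markers 1 higher and 6 lower of 10 (60% lower). Epidermal markers gave 2 higher and 5 lower of 12 (41.7% lower), and blood markers 2 higher and 4 lower of 9 (44.4% lower). For muscle the summed levels were 3106 to 3648 CPM in the mutant libraries and 3218 to 4299 CPM in the wild-type libraries. For neural markers the sums were 1205 to 1369 CPM in the mutant libraries and 1385 to 1639 CPM in the wild-type libraries. They were 35906 to 39780.2 CPM in the mutant libraries and 36066 to 41941 CPM in the wild-type libraries for epidermis, and 192 to 251.9 CPM in the mutant libraries and 250.2 to 305 CPM in the wild-type libraries for blood. Without their most abundant marker (actc1b, sox3, krt4 and hbae3) the sums did not overlap in any of these lists and were lower in the mutant. For epidermis the gap was narrow, with 8647 to 9075 CPM in the mutant libraries and 9136 to 11958 CPM in the wild-type libraries. krt4 itself did not pass (log2 fold change 8.5e-04, edgeR adjusted p = 0.992). None of these markers was at 0 in all libraries, and the part of these cell types in the ER genes was not tested.

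**Figure D5:**
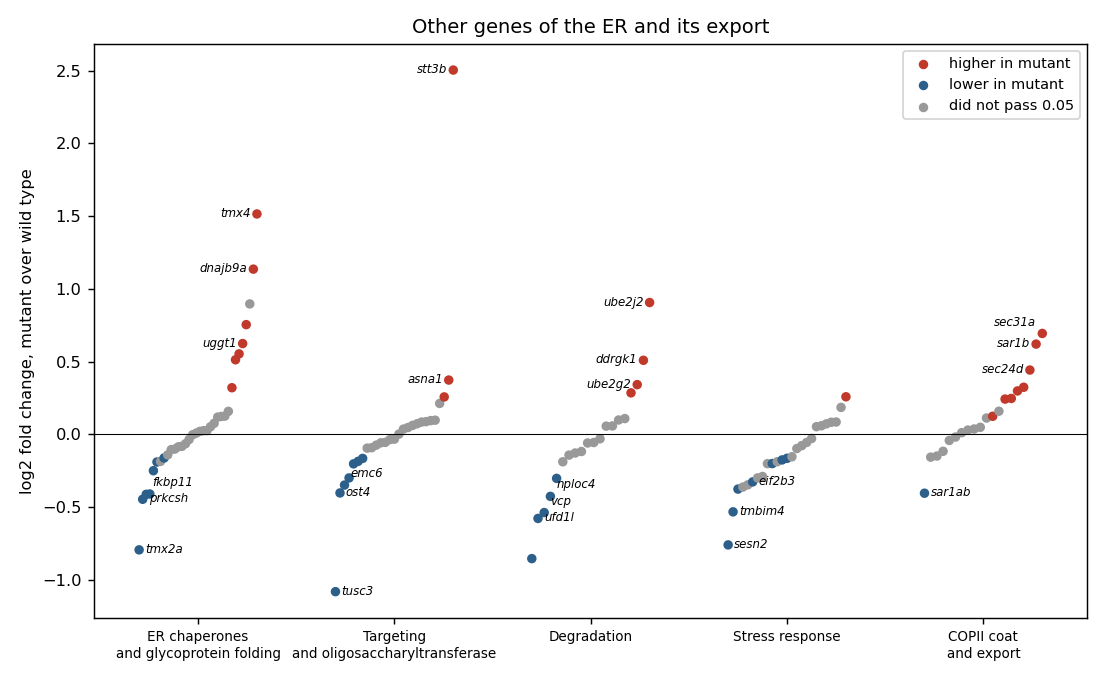
Log2 fold change (tpcn2 mutant over wild type, y axis) of the 126 other ER genes, sorted by value within each of 5 lists (x axis), coloured by the call at an adjusted p of 0.05. Labels mark the larger changes among the genes whose values the text gives by rule. stt3b is highest at 2.50 and tusc3 lowest at -1.08, and the COPII list has 8 red points and 1 blue point.

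The authors' deposited table of the same contrast gave the same call as edgeR for all 48 tested ER genes, 11 higher and 9 lower. In the authors' deposited table pdia2 was also lower, with a log2 fold change of -0.61 and an adjusted p of 0.0116. Both rest on the same counts.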

How the data were processed

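Sequencing reads of whole zebrafish embryos were handled with cutadapt 3.4, STAR 2.7 and DESeq2 1.30.0. These names come from the submitters' processing notes, where the builds danRer10 and mm10 appear with no stated role. How reads were assigned to genes, with which annotation and whether by strand, is not given in the sources used here, so overlapping antisense genes and reads shared by near-identical copies cannot be separated. The authors deposited raw counts for each gene symbol. The authors' deposited comparison holds log2 fold changes with errors, a score (the test statistic), p-values and a signal (the mean normalised count), per the file headers, with the direction read from tpcn2. The signal and the score were not used.

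Libraries were grouped by labelled genotype. Counts were filtered with filterByExpr, scaled with TMM and compared between genotypes by edgeR's quasi-likelihood test (version 4.0.16 under R 4.3.3), with no covariate, at a Benjamini-Hochberg adjusted p of 0.05 over 11871 genes. Standard errors are of the difference of mean log2 CPM (prior count 2). They ranged from 0.0270 to 0.403 among tested ER genes (median 0.0718), and 44 genes were above 10 CPM in every library, with at least 191 reads. Intervals treat reads as independent and cover counting error only. Replicates differed by more than sampling noise (chi-square per degree of freedom 5.57 to 28.6). The ER genes matched the RefSeq table of assembly GRCz12tu, 47 by symbol and 2 by synonym (sec61a1 and sec61al2), which was used for names and gene order only.

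The symbol rule and gene lists were chosen with earlier results of these data known. Values are given for tpcn2, the sensors, xbp1, ddit3 and both atf4 copies, for up to 3 non-overlapping called genes per role and direction with the largest changes, and for the gene with the highest mean CPM per role. The other genes named with values, including wild-type replicate 1 outliers and called genes whose libraries overlap, were chosen after their values were seen. Alternatives were RLE factors, library size alone, DESeq2 1.42.0, limma 3.58.1 voom, no filter, a mean CPM of at least 1, a replicate block and leaving out each library.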

Additional observations from a re-analysis of the deposited data

Results flagged for a closer look

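A library was marked where its gap to the nearest library of the same genotype, over the range of that genotype, passed Dixon's 95% value of 0.71. All 48 tested ER genes, the 126 other ER genes and tpcn2 were examined. Of 350 groups of 5 libraries in these 175 genes, 34 were marked, and chance marks about 1 in 20 groups. The genes share libraries, so their marks are not independent of each other. Marks were not counted over all tested genes, so they do not show whether ER genes stand out. Over all tested genes, wild-type replicate 1 was the highest wild-type library in 26.7% and the lowest in 27.5%. Of the 34 marks, 20 were in wild-type replicate 1, 19 of them high, and 11 were in mutant libraries.

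In wild-type replicate 1 the high genes among the chaperones and their partners were hyou1 at 152 CPM (others 97.7 to 112), manf at 52.3 CPM (others 33.6 to 37.4), pdia4 at 83.2 CPM (others 31.8 to 37.9), syvn1 at 139 CPM (others 83.2 to 99.2), hspa5 at 885 CPM (others 325 to 397), hsp90b1 at 114 CPM (others 37.5 to 51.3), dnajc1 at 156 CPM (others 133 to 139.5), dnajc3a at 55.3 CPM (others 30.7 to 33.3), cnpy2 at 25.5 CPM (others 14.7 to 17.1) and serpinh1b at 1118 CPM (others 209 to 254). High genes of the stress response list there were ppp1r15a at 56.8 CPM (others 18.5 to 28.3), cebpg at 81.7 CPM (others 57.6 to 60.7) and ddit4 at 109.9 CPM (others 34.9 to 46.9). The remaining high genes in that library were eif2ak1 at 48.97 CPM (others 32.8 to 35.7), srp14 at 122 CPM (others 109 to 113), srp9 at 61.5 CPM (others 50.8 to 52.3), tram2 at 136 CPM (others 92.2 to 98.04), ube2g2 at 56.3 CPM (others 42.3 to 45.1) and rnf103 at 21.1 CPM (others 14.8 to 16.6). The gene low in wild-type replicate 1 was atf6 at 14.4 CPM (others 23.3 to 25.4). In the other wild-type libraries, replicate 2 was high for sec62 at 45.95 CPM (others 38.7 to 40.3) and low for stt3a at 494 CPM (others 558 to 579), and replicate 5 was low for tusc3 at 23.3 CPM (others 24.4 to 24.8).

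Among mutant libraries, replicate 4 was high for serpinh1b at 1282 CPM (others 542 to 734), ddost at 499.7 CPM (others 465 to 473) and sec24c at 97.6 CPM (others 84.5 to 86.1). Replicate 1 was high for nfe2l1b at 30.5 CPM (others 27.3 to 27.9) and low for edem2 at 14.1 CPM (others 16.8 to 17.7) and ufl1 at 76.3 CPM (others 83.3 to 85.6). Replicate 2 was high for ufm1 at 87.8 CPM (others 83.3 to 84.5). Replicate 3 was high for srp19 at 60.3 CPM (others 57.2 to 57.97) and low for fkbp7 at 33.3 CPM (others 36.3 to 37.5). Replicate 5 was high for ddit4 at 69.3 CPM (others 36.6 to 38.03) and low for cebpb at 60.4 CPM (others 66.5 to 68.8).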

How the results depend on the processing

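Counts of ER genes called stayed within 1.5 times of 11 higher and 9 lower under every alternative, with 8 to 12 higher and 7 to 11 lower when 1 library was left out and 9 to 11 higher and 9 to 11 lower otherwise (9 higher and 6 lower without wild-type replicate 1 and mutant replicate 4 together). Of all genes with an adjusted p, 37.5 to 44.3% were called when 1 library was left out and 35.8 to 43.7% otherwise. For the other ER genes the counts without 1 library were 19 to 26 higher and 23 to 29 lower. Of the 20 called ER genes none changed direction, 14 stayed called in all 10 fits without 1 library, and 17 in all other settings listed at the outset. The same replicate number did not pair libraries (correlation of deviations -0.0615 to 0.0745, with 2 of 5 mutant libraries closest to their own number). With the replicate number as a block, 10 ER genes were higher and 11 lower, herpud2, sec63 and sel1l were lost (adjusted p = 0.0827, 0.0651 and 0.0706) and sec61al2, sec61g, srp54 and ssr1 gained (adjusted p = 0.0257, 0.0438, 0.0494 and 0.0493). The block also gained serpinh1b (1.203, adjusted p = 0.0153), a gene outside the set.

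Genes near 0 that were not called changed sign. With library size alone the log2 fold change was -0.00271 for creb3l1, -0.00558 for syvn1 and -0.00601 for stt3a, and hspa5 was at 0.0244 with limma-voom and 0.0272 with the block. Without wild-type replicate 1 and mutant replicate 4 together the values were -0.0238 for creb3l1, 0.0381 for ero1b, 0.00290 for sec61a1, 0.00267 for spcs2, 0.0330 for srp9 and 0.181 for hspa5. Without 1 library the ranges crossed 0, with -0.0345 to 0.0462 for creb3l1, -0.0207 to 0.141 for eif2ak1, -0.140 to 0.366 for ero1a, -0.105 to 0.0452 for ero1b, -0.0434 to 0.0328 for sec61a1, -0.0311 to 0.0246 for spcs2, -0.0340 to 0.0142 for srp14, -0.0655 to 0.0365 for srp9, -0.0627 to 0.139 for syvn1, -0.178 to 0.294 for hspa5, -0.00305 to 0.521 for hsp90b1, -0.241 to 0.0120 for dnajc3a and -0.0357 to 0.0175 for stt3a. The difference in the ero1a to ero1b ratio was -0.131 to 0.354 without 1 library, with -0.115 without mutant replicate 3 and -0.131 without wild-type replicate 4, and the cause was not tested. Depth limits ero1a, eif2ak2 and pdia2, whose levels rest on few reads.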
